A study of Homo sapiens with 12 samples.

Results

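Mitosis genes whose products act in G2 and M phase were followed in the U-HO1 and L-1236 lines, both established from Hodgkin lymphoma, a B-cell-derived tumour. The set holds 43 genes, named by symbol. Of these, 42 had a probe set that carries that symbol alone, out of 18404 genes measured in this way and 32321 probe sets in all; CENPA was not analysed here. Where a symbol had more than 1 probe set, the brightest one over the 12 arrays stood for the gene.

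The 4 groups were U-HO1 labelled siGATA-3, U-HO1 labelled siSCR, L-1236 labelled siGATA-3 and L-1236 labelled siSCR, each with 3 arrays. The treatment was an shRNA, although the sample names say si: siGATA-3 stands for an shRNA against GATA-3, the T-helper 2 transcription factor, and siSCR for a control shRNA without function. The cells of all 4 groups were transduced, kept in culture for 3 days and sorted as GFP-positive. Each sample is the amplified RNA of 25000 sorted cells. U-HO1 grew in IMDM and L-1236 in RPMI 1640, so line and medium cannot be told apart. Each line stands for 1 tumour, and no second shRNA sequence is named in the labels. Samples are described as independent, but what was independent (culture, transduction or sort) is not specified. The p-values therefore reflect array-to-array spread, which may be technical.

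A cell enters mitosis when cyclin-dependent kinase 1, bound to cyclin B, becomes active; Polo-like and Aurora kinases then drive spindle assembly, and kinetochores tie chromosomes to it. The spindle checkpoint holds back the anaphase-promoting complex until every chromosome is attached, after which securin and the cyclins are destroyed. Genes for these proteins are read mostly in G2 and M phase: the DREAM complex keeps them silent in resting cells, and B-MYB with FOXM1 switches them on through promoter elements called the cell cycle homology region. The proliferation antigen Ki-67, which MKI67 encodes, is a common stain for the tumour cells of Hodgkin lymphoma.

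The promoters of the set are shown first, since the element that FOXM1 and DREAM act through is a short sequence that can be read in them. RefSeq windows on GRCh38.p14, reaching from 250 bases before to 50 bases after the transcription start, matched 35 of the 42 genes; those not matched were AURKA, BIRC5, BUB3, FOXM1, TPX2, TTK and UBE2C. Both strands were searched for TTTGAA, the core of the cell cycle homology region, and for CCAAT, the letters bound by NF-Y. TTTGAA stood in 25 of 35 genes (71.4%), against 2238 of 14230 measured genes with a window (15.7%). CCAAT stood in 29 of 35 (82.9%), against 42.2%, and both in 21 (60%), against 6.49%. Within 60 bases before the start, 16 of the 35 genes (45.7%) held TTTGAA, against 2.83%. The related letters TTCGAA were also searched, and TTTGAA or TTCGAA stood in 27 of the 35 (77.1%), against 17.4%. A match is a description of the letters, not a site shown to be used.

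The first 4 sequences below belong to genes higher in U-HO1 and hold both motifs, the fifth to CDC25C, which holds both motifs without a line difference past the threshold, and the last to AURKB, which had one of the highest line differences without TTTGAA in the window. HMMR, KIF18A, CDK1 and AURKB are among the 5 largest line differences, and CDC25C and CCNB2 too were chosen after their values were seen. For CDK1, CDC25C and AURKB, which have several starts, 1 is shown. Each run is the 250 bases before a start, 5′ to 3′ on the gene's strand, with TTTGAA and CCAAT, or their reverse complements, in capitals.
HMMR chr5:163460382-163460631 (plus strand): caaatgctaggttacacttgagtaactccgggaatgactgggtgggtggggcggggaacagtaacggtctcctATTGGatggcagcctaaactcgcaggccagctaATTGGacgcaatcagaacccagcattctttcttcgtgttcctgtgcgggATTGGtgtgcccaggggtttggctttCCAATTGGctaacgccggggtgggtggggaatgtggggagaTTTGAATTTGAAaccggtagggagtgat
KIF18A chr11:28108157-28108406 (minus strand): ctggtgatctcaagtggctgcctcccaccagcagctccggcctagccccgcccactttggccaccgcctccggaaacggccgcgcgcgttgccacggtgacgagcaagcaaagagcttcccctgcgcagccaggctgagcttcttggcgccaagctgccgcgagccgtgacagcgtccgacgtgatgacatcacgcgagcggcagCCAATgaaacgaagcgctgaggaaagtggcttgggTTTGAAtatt
CDK1 chr10:60778228-60778477 (plus strand): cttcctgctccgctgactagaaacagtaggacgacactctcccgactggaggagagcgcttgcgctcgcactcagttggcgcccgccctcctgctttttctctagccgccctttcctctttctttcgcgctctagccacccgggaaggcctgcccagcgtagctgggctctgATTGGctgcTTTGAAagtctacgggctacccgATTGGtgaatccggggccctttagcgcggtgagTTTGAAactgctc
CCNB2 chr15:59104896-59105145 (plus strand): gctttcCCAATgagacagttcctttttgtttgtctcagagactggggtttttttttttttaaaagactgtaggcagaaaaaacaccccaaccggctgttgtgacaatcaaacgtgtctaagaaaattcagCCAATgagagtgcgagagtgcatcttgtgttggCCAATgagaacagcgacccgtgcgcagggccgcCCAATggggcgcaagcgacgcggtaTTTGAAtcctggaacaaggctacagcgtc
CDC25C chr5:138331805-138332054 (minus strand): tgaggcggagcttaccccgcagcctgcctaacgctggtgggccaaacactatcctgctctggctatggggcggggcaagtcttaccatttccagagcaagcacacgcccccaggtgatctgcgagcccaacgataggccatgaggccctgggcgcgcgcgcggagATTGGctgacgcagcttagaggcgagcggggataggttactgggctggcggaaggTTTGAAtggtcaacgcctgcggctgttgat
AURKB chr17:8210250-8210499 (minus strand): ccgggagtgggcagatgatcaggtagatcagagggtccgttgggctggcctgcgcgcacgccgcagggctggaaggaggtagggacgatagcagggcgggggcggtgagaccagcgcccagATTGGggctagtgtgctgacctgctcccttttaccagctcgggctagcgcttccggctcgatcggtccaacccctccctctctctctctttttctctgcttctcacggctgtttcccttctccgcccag

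In HMMR, TTTGAA occurred as a pair with no base between. In KIF18A, CCNB2 and CDC25C a single TTTGAA lay near the end of the run, close to the start. The 25 genes with TTTGAA had a median line difference of 0.72 on the log2 scale (from -0.07 to 1.45), and the 10 without it had a median of 0.61 (from 0.23 to 1.49). These ranges overlapped over most of their length. Of the 10 genes without TTTGAA, BUB1 and CDC25B held TTCGAA in a window.

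The values are the authors' normalized values, read here as log2. Array medians lay between 6.96 and 7.09, and the number of arrays limits the precision. The SD over all probe sets of an array ran from 1.62 on L-1236 siSCR 1 to 1.72 on L-1236 siGATA-3 3. It was 1.71 on U-HO1 siSCR 3 and 1.68 on L-1236 siSCR 2. The mitosis genes are bright, with a median level of 9.32, against 7.04 over all probe sets. Shares over probe sets of like level were not taken, and the part of array width in the pattern between arrays was not tested. GATA3, the target, was read on each array: its level was 11.07, 10.12 and 10.22 on U-HO1 siGATA-3 arrays, against 11.24, 10.90 and 10.24 on U-HO1 siSCR arrays. It was 10.80, 10.00 and 10.24 on L-1236 siGATA-3 arrays, against 10.29, 10.69 and 9.95 on L-1236 siSCR arrays. The labels overlapped in both lines, so the arrays are named by their labels only. TNFRSF8, the CD30 antigen of Hodgkin cells, averaged 10.2 ± 0.17 in U-HO1 and 9.63 ± 0.21 in L-1236 (SD, n = 6 each). Of the 8 markers of Hodgkin and Reed-Sternberg cells, TNFRSF8 among them, 4 were higher in U-HO1, 3 lower and 1 was not called. Their median difference was 0.22. By the same test, 18.0% of all probe sets were higher in U-HO1 and 17.1% lower. Of 6 mature B cell markers, 3 were lower in U-HO1: CD22, PAX5 and POU2AF1. None of 8 T cell markers passed the test between the lines, with a median level of 6.23 in U-HO1 and 6.16 in L-1236, and 1 of 8 monocyte and macrophage markers did (CSF1R, -0.26).

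On 2 of the L-1236 arrays the mitosis genes stood apart: siGATA-3 replicate 3 and siSCR replicate 2. They carry different labels. The counts of calls, of genes without overlap and of unequal spread are given with and without them; all values without them were added after seeing the data. In bulk samples, fewer cells in G2 and M phase and less of these RNAs per cell cannot be told apart.

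The mitosis genes were higher in U-HO1 than in L-1236. Over both shRNA labels, 6 arrays against 6, limma called 33 of the 42 higher in U-HO1 at an adjusted p under 0.05 and 0 lower. Over all probe sets 18.0% were called higher and 17.1% lower. The difference was positive for 41 of 42 genes, against 55.1% of all probe sets, and its median over the genes was 0.69, against 0.02 over all probe sets. In 25 genes every U-HO1 array lay above every L-1236 array, against 11.8% of all probe sets, and 12 genes were called with at least a 2-fold difference, against 2.43%. Since each of the 42 was read from its brightest probe set, the same shares were taken over the 18404 genes read in that way. Of these, 20.4% were called higher, 21.3% lower and 3.44% at least 2-fold higher, 15.0% had every U-HO1 array above every L-1236 array, and 53.1% had a positive difference. Without the 2 L-1236 arrays that stood apart, 40 of the 42 were called higher, all but CENPF and CDC25C, against 17.7% of all probe sets in that fit, and 0 were lower, against 15.9%. In 39 genes every U-HO1 array was then above every L-1236 array, against 15.2% of all probe sets, and the median difference was 0.96. Since these arrays hold the highest L-1236 values of most of the genes, leaving them out raises the difference by construction. The heat map of all 42 genes shows these levels array by array.

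**Figure D1:**
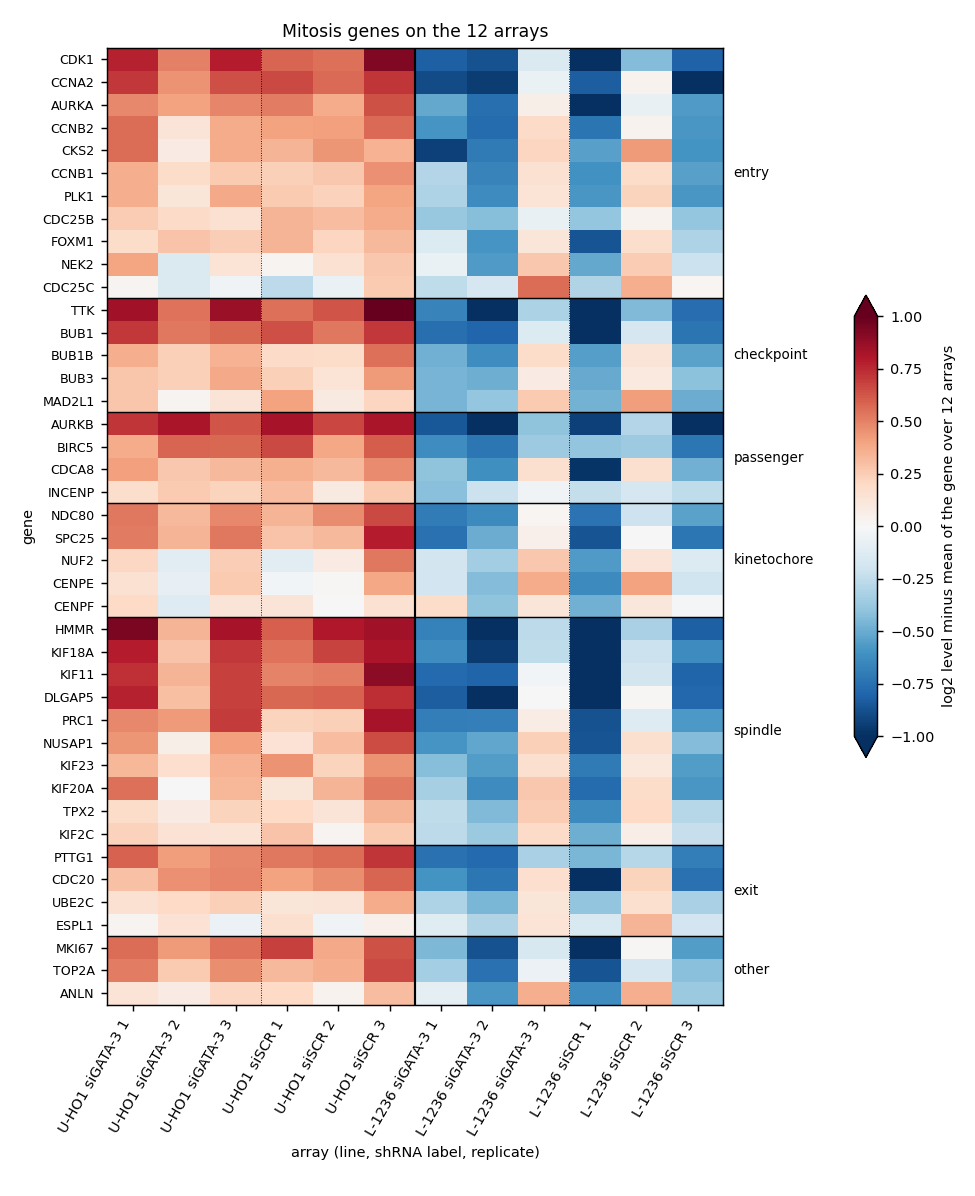
Level of each of the 42 mitosis genes (rows, grouped by role) on each of the 12 arrays (columns), as log2 level minus the gene's mean over all arrays; colours end at -1 and 1, and "other" holds MKI67, TOP2A and ANLN. The U-HO1 columns are mostly above the mean and the L-1236 columns below it, except that L-1236 siGATA-3 3 and siSCR 2 lie closer to U-HO1.

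Among the 11 kinases, cyclins and regulators of mitotic entry, 9 were higher in U-HO1 and 5 had no overlap between the lines, with a median difference of 0.59. CDK1, the kinase that starts mitosis, had levels from 9.11 over a median of 9.28 to 9.54 in U-HO1, against 7.57 over 7.80 to 8.46 in L-1236. Every U-HO1 array was above every L-1236 array, and the difference was 1.37 ± 0.14 on the log2 scale (SE, adjusted p = 7.78e-06), a 2.59-fold higher level. CCNA2, cyclin A2, which binds CDK1 and CDK2, differed by 1.25.

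CCNB1 and CCNB2 encode the B-type cyclins, which activate CDK1. CCNB1 had levels from 9.26 over a median of 9.34 to 9.53 in U-HO1, against 8.41 over 8.66 to 9.26 in L-1236. The lowest U-HO1 array and the highest L-1236 array, siSCR 2, nearly met, so the lines overlapped; the difference was 0.59 ± 0.15 (adjusted p = 0.0087). CCNB2 differed by 0.81 and CKS2, a small CDK-binding subunit, by 0.71, again with overlap.

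AURKA, the Aurora kinase of centrosomes and spindle poles, had levels from 10.31 over a median of 10.43 to 10.58 in U-HO1, against 8.90 over 9.40 to 10.00 in L-1236. The lines did not overlap (0.96 ± 0.16, adjusted p = 0.000417). PLK1, Polo-like kinase 1, had levels from 11.30 over 11.49 to 11.57 in U-HO1, against 10.55 over 10.73 to 11.40 in L-1236. Here L-1236 siGATA-3 3 and siSCR 2, at 11.31 and 11.40, reached into the U-HO1 range, and the difference was 0.58 ± 0.15 (adjusted p = 0.0101).

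FOXM1, the transcription factor that switches on many of these genes, had levels from 9.84 over a median of 9.92 to 9.99 in U-HO1, against 8.80 over 9.44 to 9.83 in L-1236. The lines did not overlap, by a narrow margin, and the difference was 0.53 ± 0.16 (adjusted p = 0.0185). CDC25B, a phosphatase that activates cyclin-dependent kinases, was higher in U-HO1 by 0.54. The centrosome kinase NEK2 (0.28, adjusted p = 0.217) and CDC25C, the phosphatase that acts on CDK1 at entry (-0.07, adjusted p = 0.782), did not pass the test.

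Of the 5 genes of the spindle checkpoint, 4 were higher in U-HO1 without overlap, and the median difference was 0.63. TTK, the MPS1 kinase that starts checkpoint signalling at kinetochores, had levels from 9.42 over a median of 9.61 to 9.92 in U-HO1, against 7.60 over 8.16 to 8.56 in L-1236. The gap between the lines was wide, and the difference of 1.49 ± 0.16 (adjusted p = 9.56e-06) was the largest estimate of the 42. BUB1, a checkpoint kinase, differed by 1.23, the checkpoint inhibitor BUB1B by 0.63 and BUB3, the partner of both, by 0.56. MAD2L1, which binds CDC20 to block the anaphase-promoting complex, did not pass the test (0.38 ± 0.17, adjusted p = 0.107). Without L-1236 siSCR 2 alone its adjusted p was 0.00562, and without L-1236 siGATA-3 3 alone it was 0.0282. These arrays held its highest L-1236 values, so leaving either out raises the difference by construction.

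All 4 genes of the chromosomal passenger complex, which corrects faulty attachments and later guides cytokinesis, were higher in U-HO1 and none overlapped between the lines. AURKB, its kinase, had levels from 10.99 over a median of 11.13 to 11.19 in U-HO1, against 9.36 over 9.48 to 10.07 in L-1236. The U-HO1 arrays lay close together and well above L-1236 (1.49 ± 0.13, adjusted p = 1.78e-06). The targeting subunits differed by 1.06 for BIRC5 (survivin), 0.72 for CDCA8 (borealin) and 0.44 for INCENP, the scaffold. BIRC5 has a second probe set, a dimmer one, with levels from 6.29 over 6.33 to 6.52 in U-HO1, against 5.96 over 6.04 to 6.12 in L-1236. Both probe sets had U-HO1 above L-1236 on every array, but the dim one differed by 0.32 only.

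Of the 5 genes of centromere and kinetochore, 2 were higher and 3 did not pass the test, with a median of 0.28. The higher ones were NDC80 (0.94) and SPC25 (0.93), subunits of the NDC80 complex that grips microtubules. NUF2, a subunit of the same complex, differed by 0.28 ± 0.15 (adjusted p = 0.19). The kinetochore motor CENPE (0.23) and CENPF, a kinetochore protein that builds up in G2 (0.16), did not pass either.

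Of 10 genes for spindle motors and microtubule-associated proteins, 9 were higher in U-HO1, with a median of 0.81. HMMR, a microtubule-binding protein of spindle poles, had levels from 9.18 over a median of 9.66 to 9.78 in U-HO1, against 7.61 over 8.09 to 8.58 in L-1236. No array overlapped, and the difference was 1.45 ± 0.17 (adjusted p = 2.34e-05). KIF18A, a kinesin that dampens chromosome movement, had levels from 9.11 over 9.51 to 9.64 in U-HO1, against 7.71 over 8.20 to 8.61 in L-1236. These groups too were apart (1.27 ± 0.16, adjusted p = 4.19e-05).

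Among the other spindle genes, the motor KIF11, which pushes spindle poles apart, differed by 1.22, and DLGAP5, which bundles spindle microtubules, also by 1.22. PRC1, the crosslinker of the central spindle, differed by 0.96. NUSAP1, a microtubule stabiliser, differed by 0.67 and KIF23, a central spindle motor, by 0.66. KIF20A, a motor of cytokinesis, differed by 0.62 and the microtubule depolymeriser KIF2C by 0.36. TPX2, which activates AURKA on the spindle, missed the threshold narrowly (0.39 ± 0.14, adjusted p = 0.0511).

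Several of these calls lay so near the threshold that leaving out 1 array moved them across it, while the differences stayed of like size. KIF20A, at 0.52 to 0.56 against 0.62 with all arrays, had an adjusted p of 0.0507 without U-HO1 siGATA-3 1, of 0.0513 without L-1236 siGATA-3 2 and of 0.0501 without L-1236 siSCR 1. KIF2C, at 0.30 to 0.34 against 0.36 with all arrays, had one of 0.051 without U-HO1 siSCR 1, of 0.0525 without L-1236 siGATA-3 1, of 0.0578 without L-1236 siGATA-3 2 and of 0.0519 without L-1236 siSCR 1. TPX2 passed without L-1236 siGATA-3 3 (0.49, adjusted p = 0.0107) or without siSCR 2 (0.50, adjusted p = 0.00618). As these arrays held its highest L-1236 values, leaving either out raises the difference by construction.

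Of 4 genes of anaphase and mitotic exit, 3 were higher in U-HO1. PTTG1, securin, which holds separase back until anaphase, differed by 1.10. CDC20, the activator of the anaphase-promoting complex, differed by 0.89, and UBE2C, the ubiquitin carrier of that complex, by 0.40. ESPL1, the separase that cuts cohesin, did not pass the test (0.10, adjusted p = 0.542).

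MKI67, which coats mitotic chromosomes, had levels from 11.13 over a median of 11.31 to 11.44 in U-HO1, against 9.56 over 10.25 to 10.77 in L-1236. Every U-HO1 array was higher (1.07 ± 0.18, adjusted p = 0.000383). TOP2A, the topoisomerase that untangles sister chromatids, had levels from 11.42 over 11.57 to 11.81 in U-HO1, against 10.29 over 10.78 to 11.09 in L-1236. It did not overlap either (0.86 ± 0.13, adjusted p = 0.000254). ANLN, the anillin of the contractile ring, did not pass the test (0.32, adjusted p = 0.196), but had an adjusted p of 0.0228 without L-1236 siSCR 2. That array held its highest L-1236 value, so leaving it out raises the difference by construction. The ranking of all genes by difference, with intervals, shows no gap between those past the threshold and those not.

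**Figure D2:**
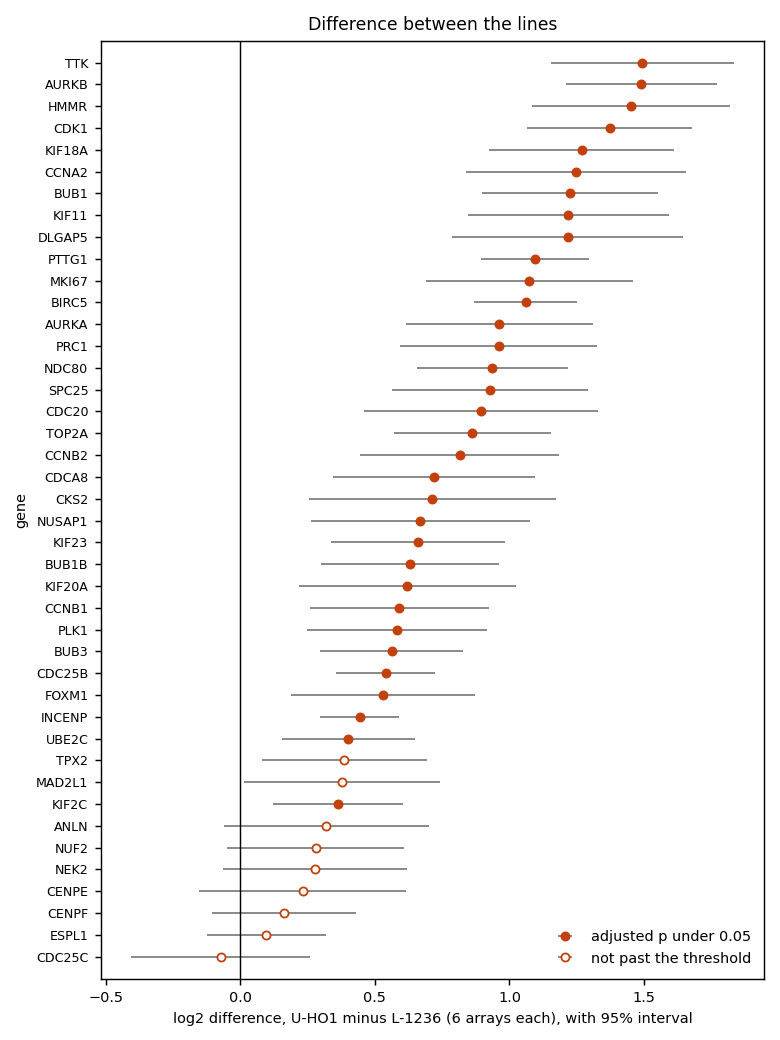
Difference of the mean log2 level, U-HO1 minus L-1236 (x axis, 6 arrays each), of each of the 42 genes (y axis), with the 95% interval of the limma fit; filled points have an adjusted p under 0.05. The estimates run from 1.49 for TTK to -0.07 for CDC25C, which alone lies below 0.

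On several arrays, not all, most mitosis genes were high or low together, and over all 6 arrays they spread more in L-1236 than in U-HO1. All 42 lay above the median of their line on L-1236 siGATA-3 3 and siSCR 2, 41 on U-HO1 siSCR 3 and 3 on L-1236 siGATA-3 2. The genes were split on U-HO1 siSCR 1, U-HO1 siGATA-3 3 and L-1236 siGATA-3 1, with 16, 25 and 24 above. Of all probe sets, 47.2% to 55.8% lay above the median of their line, depending on the array. The SD over 6 arrays was larger in L-1236 for 42 of 42 genes, against 55.1% of all probe sets, with a median SD of 0.12 in U-HO1 and 0.37 in L-1236; over all probe sets these medians were 0.11 in U-HO1 and 0.12 in L-1236. The distance from the lowest to the highest array had a median of 0.32 in U-HO1 (from 0.15 to 0.65) and of 0.90 in L-1236 (from 0.36 to 1.36). Leaving out the 2 arrays that stood apart narrows the L-1236 spread by construction, since they hold its highest values for most of the genes. Over the other 4 L-1236 arrays, set against all 6 of U-HO1, the SD was larger in L-1236 for 22 of 42 genes. The share over all probe sets was 46.3%. The median SD in L-1236 was then 0.15 and the median range 0.35, and a range over 4 arrays tends to be narrower than one over 6. Over all 6 arrays the widest L-1236 range belonged to CKS2 and the narrowest to BIRC5, both singled out after their values were seen.

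In L-1236, siGATA-3 3 and siSCR 2 were the 2 highest of the 6 arrays for 41 of 42 genes, the exception being CENPF. The same pair was highest for 13.8% of all probe sets and for 14.5% of genes read from their brightest one. The median deviation of the genes from their L-1236 mean was -0.10, -0.26 and 0.46 on the siGATA-3 arrays, against -0.38, 0.42 and -0.12 on the siSCR arrays. Both labels thus held 1 high array, and siSCR 1 was the lowest array for 27 of the 42 genes (64.3%), against 20.5% of all probe sets. The pair was picked by looking at these values, so the counts describe it and test nothing.

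The U-HO1 arrays lay within a narrower band. Their median deviations were 0.06, -0.13 and 0.03 with siGATA-3, against -0.03, -0.07 and 0.15 with siSCR. Here siSCR 3 was the highest array for 26 genes (61.9%), against 23.4% of all probe sets. The lowest for 25 genes (59.5%) was siGATA-3 2, against 18.7% of all probe sets. Averaged over the 42 genes, the level was 9.86, 9.67 and 9.83 on U-HO1 siGATA-3 arrays and 9.77, 9.74 and 9.97 on U-HO1 siSCR arrays. It was 8.95, 8.79 and 9.49 on L-1236 siGATA-3 arrays and 8.70, 9.47 and 8.92 on L-1236 siSCR arrays, so the 2 high L-1236 arrays lay between the other L-1236 arrays and all U-HO1 arrays.

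**Figure D3:**
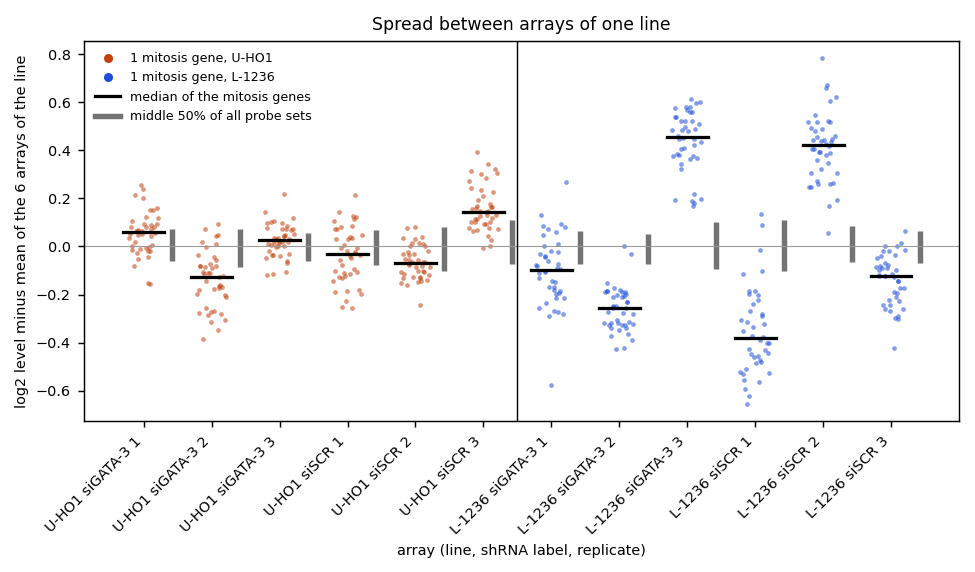
Deviation of each mitosis gene (1 point per gene) on each array from the gene's mean over the 6 arrays of its line, in log2 units; black bars are medians and grey bars span the middle 50% of all probe sets. L-1236 siGATA-3 3 and siSCR 2 sit at medians of 0.46 and 0.42, while all U-HO1 medians lie between -0.13 and 0.15.

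Each L-1236 array was then set against the range of the 6 U-HO1 arrays. Of the 42 genes, 39, 41 and 27 lay below the whole U-HO1 range on L-1236 siGATA-3 replicates 1, 2 and 3, and 42, 26 and 40 on siSCR replicates 1, 2 and 3. On siGATA-3 3 and siSCR 2 the genes thus remained mostly below U-HO1, but 2 and 5 of them lay above its range. Over all probe sets the share below ran from 25.9% to 32.0% over the 6 arrays. Depth and RNA quality are not given for these arrays, and their part in the spread was not tested.

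Other gene lists of the cell cycle were set beside the mitosis genes, by the same fit and the same arrays. Of the 18404 genes read from their brightest probe set, 20.4% were called higher in U-HO1 and 21.3% lower. The shares of each list are to be read beside these. Of 27 other mitotic kinesins and spindle proteins, 16 were higher in U-HO1 (59.3%) and 1 lower (3.7%), with a median difference of 0.54. The 3 smallest p-values belonged to RACGAP1, the partner of KIF23 in the central spindle (1.46), to KIF20B, a motor of cytokinesis (1.55), and to GTSE1, a microtubule-binding protein made in S and G2 phase (0.84). Of 28 other centromere and kinetochore proteins, 16 were higher (57.1%) and 6 lower (21.4%), with a median of 0.52. The share lower was near that over all genes. The centromere proteins MIS12 (0.95) and CENPW (0.92) were higher and ZW10, which brings dynein to kinetochores, was lower (-0.64).

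Of 20 genes of condensin and cohesin, the rings that shape and hold chromosomes, 14 were higher (70%) and 1 lower (5%, median 0.51). The cohesin subunits RAD21 (0.81) and SMC3 (0.66) and the condensin subunit NCAPH2 (0.53) had the smallest p-values, not the largest differences. Of 31 genes of mitotic entry control and the DREAM or MuvB complexes, 11 were higher (35.5%) and 5 lower (16.1%, median 0.05). GAS2L3, a cytoskeletal protein of cytokinesis (2.30), and the mitotic kinase PBK (1.77) were higher, and NFYA, a subunit of the CCAAT-binding factor NF-Y, was lower (-0.85). Over the 16 genes for subunits and partners of the anaphase-promoting complex the calls went both ways. Of them, 5 were higher (31.25%) and 6 lower (37.5%), with a median of 0.01. The inhibitor of the complex, FBXO5 (EMI1), was higher (1.36) while the subunits CDC26 (-0.69) and CDC16 (-0.56) were lower.

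Of 47 genes of DNA replication and the G1 to S step, 22 were higher (46.8%) and 3 lower (6.38%), with a median of 0.32. Thymidine kinase TK1 (1.30), the replication factor MCM10 (1.40) and DBF4, the partner of the CDC7 kinase (0.78), had the smallest p-values. Of 14 inhibitors of the cell cycle and p53 targets, 5 were higher (35.7%) and 4 lower (28.6%, median -0.01), against 20.4% and 21.3% over all genes. CDKN1A, the p21 inhibitor of cyclin-dependent kinases, was lower in U-HO1, with levels from 7.67 to 7.95 in U-HO1, against 8.95 to 9.08 in L-1236, and a difference of -1.15 ± 0.05 (adjusted p = 7.61e-09). The arrays of the 2 lines did not overlap. CCNG2, an unconventional cyclin made in arrested cells, was lower too (-1.71), while SESN1, a p53 target, was higher (0.51).

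The array pattern in L-1236 was shared unequally by these lists. L-1236 siGATA-3 3 and siSCR 2 were the 2 highest arrays for 43 of 47 genes of DNA replication, for 25 of 28 other centromere proteins and for 23 of 27 other kinesins and spindle proteins. They were so for 23 of 31 entry control and DREAM genes and for 12 of 20 condensin and cohesin genes. The counts were 6 of 16 genes of the anaphase-promoting complex (37.5%) and 3 of 14 inhibitors and p53 targets (21.4%). The share was 13.8% over all probe sets and 14.5% over genes read from their brightest one. For the anaphase-promoting complex the median deviation was 0.23 on siGATA-3 3 but -0.05 on siSCR 2. The 2 arrays were high for replication and mitosis genes alike. The low arrays differed: the mitosis genes had their lowest median on siSCR 1 (-0.38), and the replication genes on siGATA-3 1 (-0.27), where the mitosis genes were at -0.10.

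**Figure D4:**
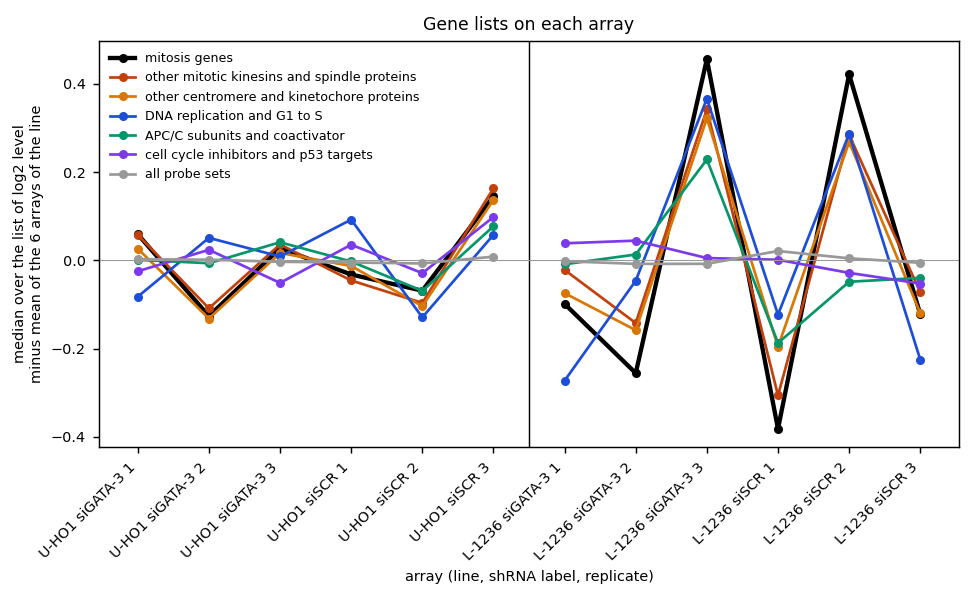
Gene lists (lines), each drawn as its median on the 12 arrays (x axis). The median is of the log2 level minus the mean of the 6 arrays of the cell line (y axis). The condensin and cohesin list and the entry control and DREAM list are not drawn. Mitosis, spindle, centromere and replication genes peak on L-1236 siGATA-3 3 and siSCR 2, while the inhibitors and p53 targets and all probe sets stay near 0.

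The comparison the submitters made, siGATA-3 against siSCR within a line, called 0 of the 42 genes in either line by their criteria, which ask for a 1.5-fold change and a false discovery rate up to 25% (limma; 0.0% of all probe sets in each line). At an adjusted p under 0.05 without a fold limit it again called 0, and at an unadjusted p under 0.05 it called 0 of 42, against 1.05% of all probe sets in U-HO1 and 4.77% in L-1236. The difference of the 2 effects likewise called 0 genes at an adjusted p under 0.05 (0.0% of all probe sets) and 0 at an unadjusted p under 0.05 (2.46%). It was positive, meaning a higher effect in U-HO1, for 8 of 42 genes, against 51.0% of all probe sets. Its median of -0.11 turned to 0.10 without L-1236 siGATA-3 3 and to 0.06 without L-1236 siSCR 1.

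These fits take 1 spread for all groups, and the L-1236 arrays, with their larger spread, widen the U-HO1 intervals. The median SE of the 42 genes in U-HO1 was 0.22 in the fit of all groups and 0.10 in a fit of the 6 U-HO1 arrays alone. The L-1236 intervals are narrowed in turn: their median SE was 0.22 in the fit of all groups and 0.25 with the L-1236 arrays alone. At an unadjusted p under 0.05 the fit of U-HO1 alone called 0 of 42 genes (0.975% of all probe sets), and that of L-1236 alone called 0 (4.99%).

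In U-HO1 the difference was positive for 5 of 42 genes, against 49.0% of all probe sets, with a median of -0.04. The median turned to 0.02 without siGATA-3 2 and to 0.01 without siSCR 3, so its sign rests on single arrays. PRC1 had levels of 10.02, 9.97 and 10.24 on siGATA-3 arrays, against 9.77, 9.78 and 10.37 on siSCR arrays. The highest value was a siSCR array, so the labels overlapped (0.11, 95% interval -0.41 to 0.62). BUB3 had levels of 9.94, 9.90 and 10.04 on siGATA-3 arrays, against 9.90, 9.79 and 10.09 on siSCR arrays, and these too overlapped (0.03, interval -0.34 to 0.41).

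CDC25B had levels of 8.76, 8.70 and 8.66 on U-HO1 siGATA-3 arrays, against 8.85, 8.81 and 8.88 on siSCR arrays. All siGATA-3 arrays were lower, as they were for 1 of the 42 genes and for 1.99% of all probe sets (-0.14, interval -0.40 to 0.12, or -0.31 to 0.03 with the U-HO1 arrays alone). The reverse order, all siGATA-3 arrays above all siSCR arrays, was seen in 0 of 42 genes, against 1.8% of all probe sets. PTTG1 had levels of 8.65, 8.48 and 8.54 on siGATA-3 arrays, against 8.58, 8.61 and 8.77 on siSCR arrays, with overlap (-0.10, interval -0.38 to 0.18).

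In L-1236 the difference was positive for 30 of 42 genes, against 46.7% of all probe sets, with a median of 0.06. CDK1 had levels of 7.79, 7.73 and 8.46 on siGATA-3 arrays, against 7.57, 8.17 and 7.80 on siSCR arrays. TTK had levels of 8.21, 7.85 and 8.56 on siGATA-3 arrays, against 7.60, 8.43 and 8.11 on siSCR arrays. In both genes the highest value was siGATA-3 3 and the next siSCR 2, and the labels overlapped (CDK1 0.15, interval -0.28 to 0.58, and TTK 0.16, interval -0.33 to 0.64).

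The genes with the smallest p among the negative differences showed the same 2 arrays. PTTG1 had levels of 7.31, 7.28 and 7.73 on L-1236 siGATA-3 arrays, against 7.60, 7.77 and 7.36 on siSCR arrays (-0.14, interval -0.42 to 0.14). CKS2 had levels of 10.09, 10.32 and 11.24 on siGATA-3 arrays, against 10.48, 11.45 and 10.42 on siSCR arrays (-0.24, interval -0.89 to 0.41). In L-1236, 0 of 42 genes had all siGATA-3 arrays above all siSCR arrays, against 3.24% of all probe sets, and 0 had them all below, against 7.45%. The median difference turned on single arrays: it was -0.15 without siGATA-3 3 and 0.29 without siSCR 2, and 0.08 without both. The intervals of the 42 genes still allow changes from -0.89 to 0.74 in L-1236, or from -1.08 to 0.94 with the L-1236 arrays alone. In U-HO1 they allow changes from -0.69 to 0.62, or from -0.45 to 0.48 with the U-HO1 arrays alone. Calls of 0 thus do not show that the levels were alike.

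**Figure D5:**
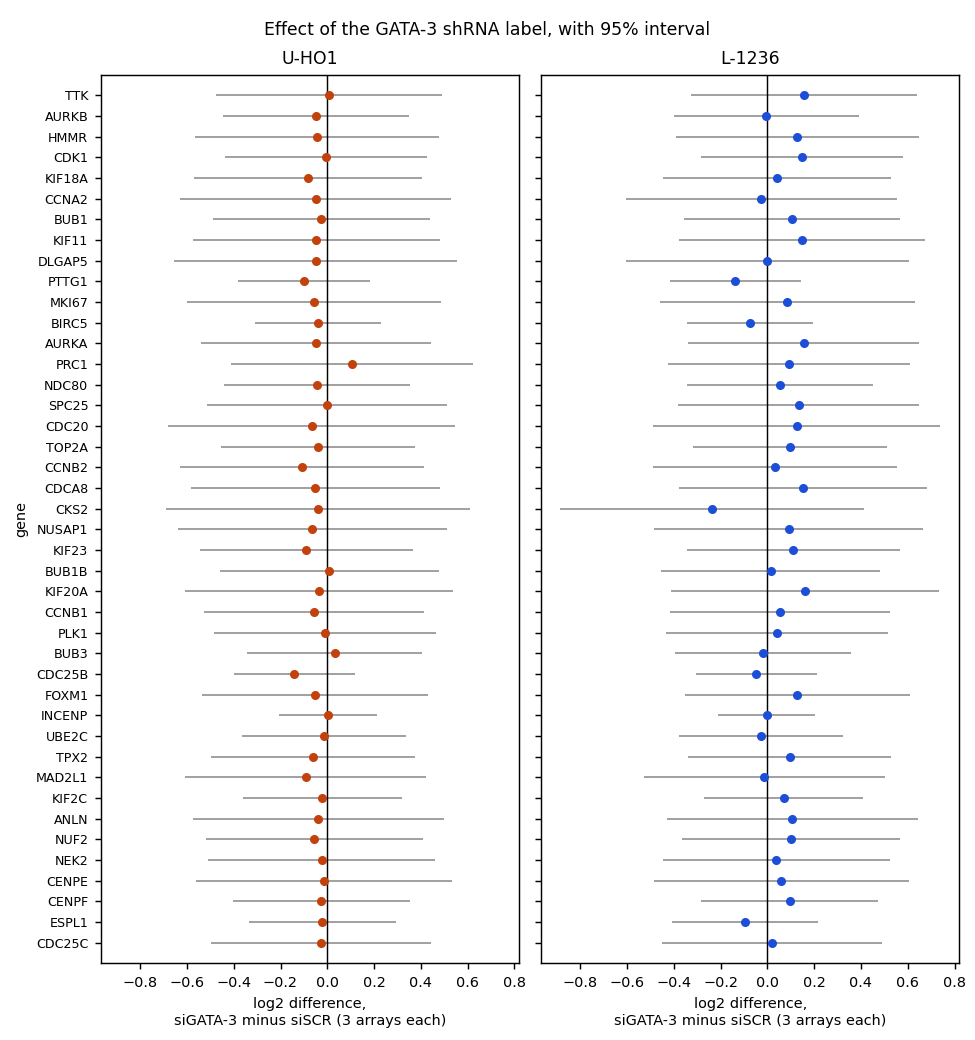
Difference of the mean log2 level, siGATA-3 minus siSCR (x axis, 3 arrays each), for each of the 42 genes (y axis) in U-HO1 and in L-1236, with 95% intervals of the limma fit. All intervals hold 0, and the estimates lie between -0.14 and 0.11 in U-HO1 and between -0.24 and 0.16 in L-1236.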

How the data were processed

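RNA of 12 samples of U-HO1 and L-1236 was measured on one-colour Affymetrix whole-transcript arrays. The deposited table holds the authors' normalized values, which run from 3.86 to 13.99 and were read as log2. Per the submitters' processing notes the tool was R 2.8.1, with Bioconductor per the labels' design text. The log base, background correction and normalization method are not given in the sources that were used, so fold sizes rest on this reading.

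Of 32321 probe sets, 19158 have 1 gene symbol in the platform's annotation, 1388 several and 11775 none. A RefSeq table held the Entrez identifiers of 19128 single-symbol probe sets, and 0 symbols changed.

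One limma model (limma 3.58.1, R 4.3.3, lmFit and eBayes, statmod 1.5.0) with a mean for each of the 4 groups was fitted to all probe sets, with Benjamini-Hochberg adjustment over all 32321. The model takes 1 spread for all groups. Its code was run on simulated data with 200 changed probe sets. The simulated noise was independent between probe sets and had 1 spread for all groups. These arrays differ from that, so the run does not test the model on them. Levels by line, as lowest, median and highest, were given for the 5 largest line differences called higher (none was called lower), for CDK1, CCNB1, AURKA, AURKB, PLK1, MKI67, TOP2A and FOXM1, and levels on each array for the 2 smallest p each way in each shRNA comparison. Of other lists, up to 3 genes with the smallest p were named. The genes, the lists and these rules were chosen with earlier results of these data known. Alternatives were a replicate block, quantile normalization, centred medians, a filter on dim probe sets, 1 value per gene, another prior, array weights, fold limits, single labels and leaving out arrays.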

Additional observations from a re-analysis of the deposited data

How the results depend on the processing

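The 33 genes called between the lines numbered 33 with a replicate block, after quantile normalization, with centred array medians and with a trended and robust prior, and 34 or 35 with dim probe sets left out, 1 value per gene or array weights. Every one of these fits called all 33. Leaving out each array in turn gave 31 to 36 genes and a median difference from 0.58 to 0.84. In the fit of all 12 arrays, the line contrast between the siSCR groups called 26, and that between the siGATA-3 groups called 21. These contrasts set 3 arrays against 3 and take their spread from all 12 arrays. With a fold of at least 2 asked, 12 were called. Without both L-1236 siGATA-3 3 and siSCR 2, 40 were called. Over single genes and alternatives, 923 results stayed on their side of the threshold, 26 lost it and 17 gained it, and no called difference changed sign.

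Both shRNA comparisons and the difference of their effects gave 0 genes under every alternative. Their median differences did move: leaving out single arrays gave -0.15 to 0.29 in L-1236, -0.08 to 0.02 in U-HO1 and -0.34 to 0.10 for the difference of effects, and with array weights the L-1236 median was -0.08, the U-HO1 median 0.00096 and the median of the effect difference 0.07. Whether the replicate numbers pair the arrays is not stated and cannot be told from these values. Same-numbered siGATA-3 and siSCR arrays correlated over probe sets, as deviations from their group means, at -0.17, 0.06 and 0.32 in U-HO1 and at 0.17, -0.40 and -0.22 in L-1236, while L-1236 siGATA-3 3 and siSCR 2 correlated at 0.54. The block changed no call of the 42 genes. The number of arrays, 3 in a group, limits the precision, and signal over background is not given for these arrays.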
